A study of Mus musculus with 6 samples.

Results

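miR-132 and miR-184 are microRNAs known for their link to neuronal activity. Their assays were chosen by name, taking every assay called miR-132, miR-212 or miR-184 on the cards, in any arm and under a mouse or rat name. The rule found 2 assays of 584, both mouse-named and both single wells on card A, and miR-212 is not analysed here. Levels were measured in purified cell bodies of mouse cortical projection neurons at postnatal day 1, in 3 samples of callosal projection neurons (CPN), which join the hemispheres and were the controls, and 3 samples of subcerebral projection neurons (SCPN), whose axons run to the brainstem and spinal cord. Neither strain, sorting method nor animals per sample is stated in the labels. As separate animals or litters are not named for the samples, p-values cover their spread alone, and this spread can be technical. The assay was quantitative PCR on TaqMan Low Density Array cards, which give a threshold cycle (Ct) per well, the PCR cycle where fluorescence passes a set level. A lower Ct means more template.

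A microRNA guides the silencing complex to transcripts that pair with its seed, bases 2 to 8 from the 5′ end. The Mir212 and Mir132 genes are transcribed together, and in rodent neurons their transcript is a classical target of the activity-regulated factor CREB. miR-132 represses p250GAP, a regulator of the neuronal cytoskeleton, and is known for promoting the growth of dendrites and spines. miR-184 is known from mouse neurons as a microRNA induced by depolarisation, from neural stem cells as a regulator of Numblike, and from lens and cornea as an abundant microRNA.

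The sequences below are RefSeq's for GRCm38.p6 and show what each assay name refers to and why miR-132 is grouped with miR-212. The deposited names give no arm. The seed is in capitals in the mature sequences.
mmu-miR-132-3p: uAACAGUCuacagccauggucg
mmu-miR-132-5p: aACCGUGGcuuucgauuguuac
mmu-miR-212-3p: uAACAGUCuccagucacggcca
mmu-miR-184-3p: uGGACGGAgaacugauaagggu
mmu-miR-184-5p: cCUUAUCAcuuuuccagccagc

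miR-132-3p and miR-212-3p had the same seed, AACAGUC, and 17 of 22 identical positions, and among 1679 mature mouse names in the RefSeq table no others carried that seed. A transcript pairs with it through GACUGUU. The seed of miR-184-3p, GGACGGA, was carried by no other mature name, pairs with UCCGUCC, and miR-184-3p matched miR-132-3p at 4 of 22 positions. The members thus have no seed in common. The hairpins from which they are cut are shown next, 5′ to 3′ on the strand of the gene, with the 3p mature sequence in capitals.
Mir132, chr11:75173682-75173747, plus strand: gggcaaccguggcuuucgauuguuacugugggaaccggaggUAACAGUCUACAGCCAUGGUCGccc
Mir184, chr9:89802260-89802328, minus strand: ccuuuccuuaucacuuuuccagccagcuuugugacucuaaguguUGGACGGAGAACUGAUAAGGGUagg

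The hairpin of Mir212 ends 203 bases before that of Mir132. RefSeq places 0 other genes over Mir132 and 0 over Mir184, whose nearest listed neighbours are Ankrd34c and 4930524O08Rik.

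Template amounts differed widely between samples. The mean Ct of the 159 card A assays with Ct under 35 in all 6 samples ran from 21.8 to 28.1 cycles, and assays detected per sample numbered 250 to 331 of 584. The group means of this Ct were close, 25.1 ± 2.76 for CPN against 25.4 ± 3.12 for SCPN (SD, n = 3 each). The control RNAs to which the authors normalised were less alike between groups. Their card A Ct was 13.5, 17.6 and 16.9 in CPN replicates 1, 2 and 3. In SCPN replicates 1, 2 and 3 it was 13.8, 19.2 and 19.4, higher at each replicate number. Of the 5 neuronal marker assays matched by name on the cards, miR-9, miR-137 and miR-138 lay above the card mean and miR-124 below it. miR-153 was detected in 3 samples. The list also names miR-128a, which matched no assay, so the neuronal counts and sums leave it out. The cards' miR-128 assay averaged 2.81 log2 units above the card mean in CPN and 2.25 in SCPN, lower in SCPN without overlap. Among markers of other cells, 0 erythroid assays could be tested, and the oligodendrocyte miR-338-3p was detected in 4 samples. On a choroid plexus and ependyma list, 6 of the 12 assays were detected in 0 samples and 6 were tested. Of the tested ones, miR-204, miR-200c, miR-34b-3p, miR-449a and miR-449c were detected in all 6 samples and miR-34c in 3. miR-204 averaged 3.94 log2 units above the card mean in CPN and 4.52 in SCPN. Summed over each list, with 1 standing for the card mean, the microglia and blood assays had levels from 2.71 to 4.03 in CPN and 1.73 to 7.04 in SCPN, and the vascular assays from 3.24 to 5.55 and 4.70 to 23.1, with the highest value of both in SCPN replicate 2. The choroid plexus and ependyma assays summed to between 13.55 and 24.04 in CPN and between 19.06 and 29.10 in SCPN. These are sums of linear levels. The choroid plexus and ependyma sum is mostly miR-204 and the vascular sum mostly miR-126-3p, and in SCPN replicate 2 the microglia and blood sum is mostly miR-150. Means were higher in SCPN for 2 of 5 neuronal, 4 of 6 microglia and blood, 3 of 4 vascular, 1 of 6 choroid plexus and ependyma and 0 of 1 oligodendrocyte assays tested. The summed muscle assays did not overlap between groups, from 0.236 to 0.280 in CPN and 0.0703 to 0.152 in SCPN, and the 2 tested went opposite ways without overlap, miR-133a by -3.67 ± 0.76 and miR-206 by 2.85 ± 1.05 log2 units (SE), with limma adjusted p of 0.24 and 0.50. miR-206 was detected in 2 of the 3 CPN samples, so the size of its difference depends on the limit of Ct 35. Groups did not overlap for 15.0% of all 306 assays tested. The part of muscle, choroid plexus and ependyma markers in the values of the members was not tested.

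miR-132 was abundant in both neuron classes and followed the card A mean Ct closely. Its Ct was 17.8, 23.4 and 20.2 in CPN replicates 1, 2 and 3 and 16.8, 23.1 and 23.0 in SCPN replicates 1, 2 and 3. It was low wherever the card A mean Ct was low, and the groups overlapped. By Ct it stood between the 17th and the 24th place among the 173 to 229 assays detected on card A of a sample, a ranking of Ct and not of molecule numbers, since PCR efficiency can differ between assays. Over the 6 samples its Ct changed by 1.09 cycles per cycle of the card A mean, against a median of 1.03 over the 159 assays.

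miR-184 was near the lower end of what the cards measured and did not follow the card A mean Ct in the same way. Its Ct was 32.7, 31.4 and 33.0 in CPN replicates 1, 2 and 3 and 27.1, 33.2 and 32.7 in SCPN replicates 1, 2 and 3. One sample, SCPN replicate 1, was thus far below the other 5, which lay within 1.83 cycles of each other while their card A mean Ct ran from 22.6 to 28.1. SCPN replicate 1 also had the lowest card A mean. From CPN replicate 1 to CPN replicate 2 the card A mean Ct differed by 5.48 cycles and miR-132 by 5.55, whereas miR-184 differed by -1.26. miR-184 was the 1 assay of the 159 with a lower Ct in CPN replicate 2, a comparison chosen after the values were seen. Its Ct changed by 0.483 cycles per cycle of the card A mean. Of 15 assays with a mean Ct of 30 or more, where this slope had a median of 0.730 and a range of 0.335 to 1.37, it had the 2nd lowest.

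**Figure D1:**
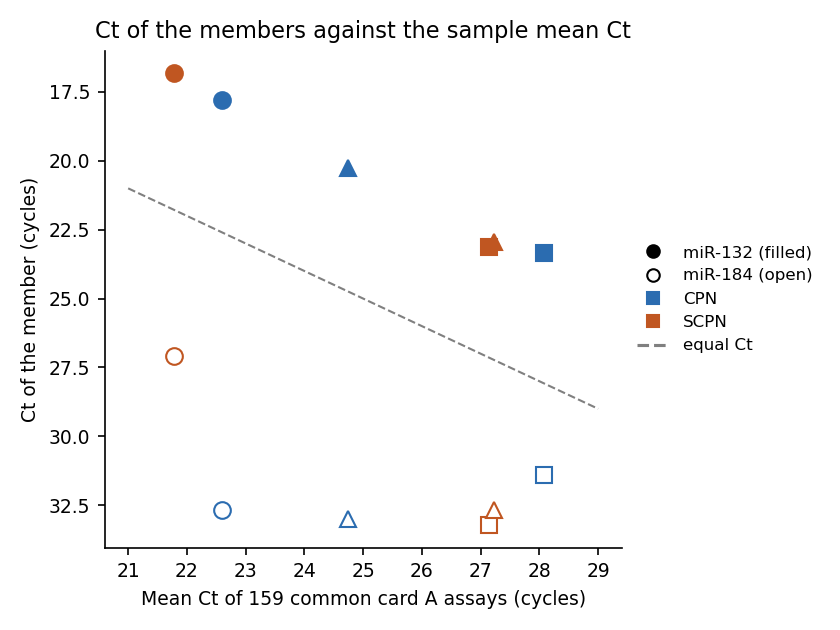
Ct of miR-132 (filled) and miR-184 (open) in cycles, with the axis turned so that more template is higher, against the mean Ct of 159 card A assays in the same sample. Colour marks the group, circles, squares and triangles mark replicates 1, 2 and 3, and the dashed line marks equal Ct. miR-132 runs parallel to the line in all 6 samples, while 5 of the 6 miR-184 points lie between 31.4 and 33.2.

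For the comparison of groups, each sample's mean over the assays of the card found in all 6 samples was subtracted and the sign turned. A level of 0 is then the card mean, 1 unit is 1 cycle, or 1 log2 unit at full PCR efficiency, and higher means more. Ct values of 35 or more, and wells with no Ct, were set to 35, which touched neither member.

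The miR-132 level was 4.79, 4.71 and 4.49 in CPN replicates 1, 2 and 3 and 4.96, 4.01 and 4.28 in SCPN replicates 1, 2 and 3. SCPN held both the highest and the lowest value, so the groups overlapped. The CPN mean was 4.66 ± 0.15 and the SCPN mean 4.41 ± 0.49 (SD, n = 3 each). The log2 difference, SCPN minus CPN, was -0.25 ± 0.55 (SE), or 0.840-fold, with a 95% confidence interval of -1.54 to 1.04 and a limma adjusted p of 0.93. In size the difference was above the SD of the CPN samples and below that of the SCPN samples, and the interval leaves room for a change in either direction.

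The miR-184 level was -10.06, -3.32 and -8.26 in CPN replicates 1, 2 and 3 and -5.28, -6.09 and -5.44 in SCPN replicates 1, 2 and 3. The SCPN samples lay close together, while CPN held the highest value and the 2 lowest. The CPN mean was -7.21 ± 3.49 and the SCPN mean -5.60 ± 0.42 (SD, n = 3 each). The log2 difference was 1.61 ± 1.57 (SE), or 3.05-fold, with a 95% confidence interval of -2.07 to 5.28 and a limma adjusted p of 0.81. Same-numbered samples differed by 4.78, -2.77 and 2.81, so the pairs went both ways.

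**Figure D2:**
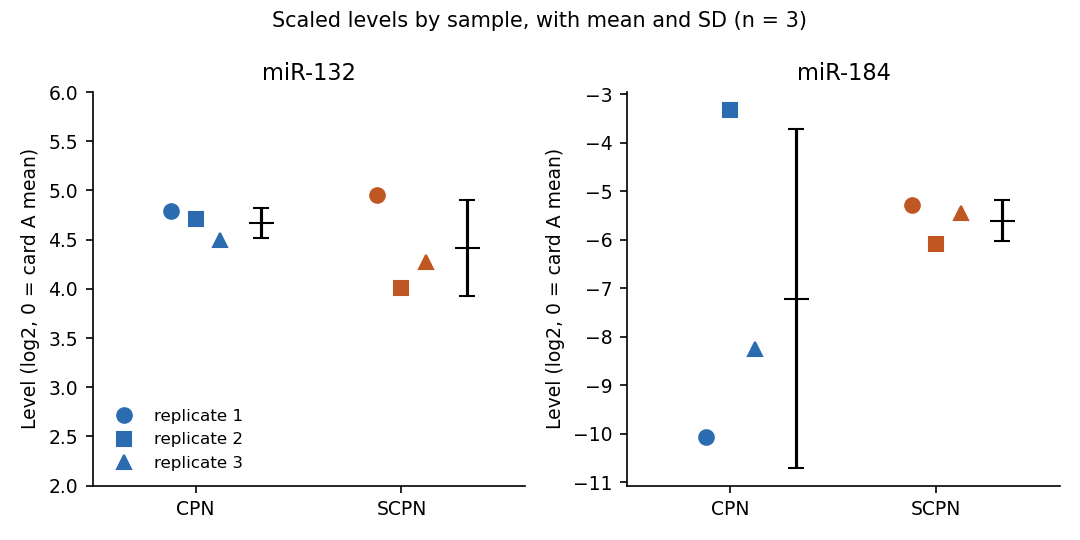
Scaled level (log2 units, 0 = mean of common card A assays) of miR-132 and miR-184 in each CPN and SCPN sample, with the vertical axes set separately. Points are samples, the horizontal mark is the group mean and the bar is 1 SD (n = 3). miR-132 keeps to 4.01 to 4.96 throughout, and miR-184 spans -10.06 to -3.32 within CPN alone.

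Single CPN samples decided the size of the miR-184 difference. CPN replicate 2 had the highest card A mean Ct and the fewest assays detected. By the authors' control RNAs, SCPN replicates 2 and 3 had a higher card A Ct than CPN replicate 2. Without CPN replicate 2 the miR-184 difference was 3.50 ± 0.73 (SE), with an unadjusted p of 0.00315 in the limma fit and an adjusted p of 0.32. Without CPN replicate 1 it was 0.18 ± 1.33, and without both samples numbered 1, left out after the data were seen, 0.022 ± 1.56 (SE). CPN replicate 2 also had the lowest summed neuronal markers, at 210.9 against 329 to 689 in the other 5 samples. That sum is of linear levels and is mostly miR-9. In CPN replicate 2 miR-9, miR-137 and miR-138 had their lowest levels, at 7.12, 1.42 and 6.09. miR-124 was at -0.52 there, against -1.19 and -0.92 in CPN replicates 1 and 3. In SCPN replicates 1, 2 and 3 miR-124 was at -0.32, -2.06 and -1.36. The miR-128 assay, outside the sum, was at 2.85 in CPN replicate 2, against 2.51 and 3.06 in CPN replicates 1 and 3. Its SCPN levels were 2.51, 2.05 and 2.20 in replicates 1, 2 and 3. The part of template amount in the miR-184 values was not tested, beyond a fit with the card A mean Ct as a covariate, chosen after the data were seen, in which the difference was 1.48 ± 1.38 (SE).

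Over all 306 assays tested, 0% passed an adjusted p of 0.05 by limma, and 0 of the 2 members did. An unadjusted p under 0.05 was reached on the scale used here by 25 assays, or 8.17%, and by neither member, and 51 with the replicate block, again with neither. Groups did not overlap for 15.0% of the assays and for 0 of the 2 members. By unadjusted p, miR-184 ranked 127th and miR-132 217th.

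The members stood at opposite ends of the spread within CPN. The SD of miR-132 over the CPN samples, 0.15 log2 units, was the smallest of the 159 card A assays detected in all 6 samples, and that of miR-184, 3.49, was the largest, against a median of 0.83. In SCPN both were below the median of 0.68, at 0.49 for miR-132 and 0.42 for miR-184. These ranks are a description with 3 samples a group. Neither member had a 2nd well. Of the 209 assays on card B, 150 have 2 wells, and these wells differed by a median of 0.0827 cycles for 51 pairs with a mean Ct from 16 to 24, near that of miR-132, and by 0.654 cycles for 111 pairs from 30 to 34, near that of miR-184. In 90% of the latter pairs the gap was under 1.96 cycles, and the largest was 4.04.

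**Figure D3:**
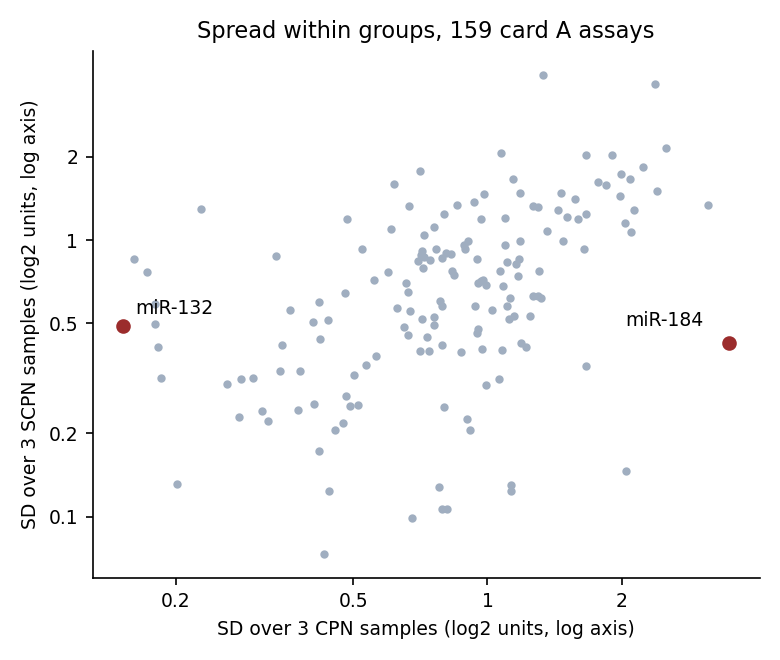
SD of the scaled level over the 3 CPN samples (horizontal) and the 3 SCPN samples (vertical), both in log2 units on log axes, for 159 card A assays (grey) and the members (red). miR-132 (0.15) marks the lower and miR-184 (3.49) the upper end of the CPN axis, while both are near 0.4 to 0.5 on the SCPN axis.

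Since both assays sit on card A, their distance within a sample needs no scaling. miR-184 followed miR-132 by 14.8, 8.03 and 12.8 cycles in CPN replicates 1, 2 and 3 and by 10.2, 10.1 and 9.72 cycles in SCPN replicates 1, 2 and 3. The SCPN distances were nearly equal, and the CPN distances lay on both sides of them. As levels, miR-184 minus miR-132 averaged -11.9 ± 3.49 over the CPN samples and -10.0 ± 0.268 over the SCPN samples (SD, n = 3 each), a difference of 1.86 log2 units with a two-sided exact permutation p of 0.4, where 0.1 is the smallest possible. Leaving out CPN replicate 2 made it 3.78, and leaving out CPN replicate 1 made it 0.373.

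The choice of scale moved the differences of both members. On the scale used here 45.1% of the 306 assays had a higher mean in SCPN and the median difference was -0.079, while with the authors' normalisation to control RNAs 82.03% did and the median was 0.87. The miR-132 difference turned to 0.99 ± 1.15 (SE) with it, and to 1.07 ± 1.04 with the controls other than U6. The miR-184 difference was 2.85 ± 1.34 (SE) with the authors' normalisation, with a limma unadjusted p of 0.0483 and an adjusted p of 0.49, and 2.93 ± 1.34 with the controls other than U6, with an unadjusted p of 0.0515 and an adjusted p of 0.38. The imprinted 12qF1 microRNAs, a large maternally expressed cluster, are among the assays that set the scale, and with them left out of it the miR-132 difference was 0.094 ± 0.55 (SE). Set against the median card A difference, miR-132 was at -0.12 and miR-184 at 1.74 on each of these scales, ranks 113 and 18 from the top among the 208 card A assays tested, which cannot differ where a scale shifts all assays of a card alike. With quantile normalisation, which does not, they were at -0.28 and 1.22, ranks 129 and 34. The authors' deposited table lists a relative quantity, SCPN over CPN, of 1.99 for miR-132 and 7.21 for miR-184. In the authors' deposited table the median ratio of 240 assays was 1.72, 194 were above 1, and the members ranked 102nd and 17th.

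Other microRNAs known for roles at rodent synapses were set beside the members. The list names 11 microRNAs with 22 assays on the cards, of which 17 were tested, 9 with a higher and 8 with a lower mean in SCPN. Their median log2 difference was 0.54, against -0.079 over all 306. By limma 0 of the 17 passed after adjustment, and groups did not overlap in 5 of 17, against 15.0% of all assays tested. miR-134, miR-329, miR-381 and miR-485 are 12qF1 microRNAs, so the list is partly that cluster.

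miR-138, which limits spine size through the depalmitoylating enzyme APT1, had levels of 6.20, 6.09 and 6.48 in CPN replicates 1, 2 and 3 and 7.15, 7.42 and 7.27 in SCPN replicates 1, 2 and 3. The SCPN samples were all above the CPN samples, and the difference of 1.02 ± 0.52 (SE) had a limma adjusted p of 0.71. Its other strand, miR-138*, differed by 1.26 ± 0.63, and miR-134, a regulator of the spine kinase Limk1, by 1.24 ± 0.68 (SE). miR-485, which acts on the synaptic vesicle protein SV2A, differed by 4.21 ± 1.26 (SE), with 1 CPN sample and 3 SCPN samples detected, so that its size depends on the Ct limit, and miR-485* differed by 0.91 ± 0.54. miR-381, tested through a rat-named assay, differed by 1.53 ± 1.11, and miR-329, detected in 4 samples, by -0.051 ± 1.21 (SE).

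The other tested assays of the list were those of microRNAs outside 12qF1. miR-181a, a regulator of the AMPA receptor subunit GluA2, differed by -1.58 ± 0.70 and miR-181a-1* by -1.003 ± 0.64 (SE). miR-125b-5p, a regulator of the NMDA receptor subunit NR2A, differed by -1.11 ± 0.63, and miR-125b-3p by -0.69 ± 0.83, while the mouse-named and rat-named miR-125b* assays differed by 0.73 ± 0.54 and 0.54 ± 0.64. miR-124, the neuron-enriched microRNA known to restrain CREB in the sea slug Aplysia, differed by -0.37 ± 0.65, and miR-137 by 0.58 ± 0.65 (SE). miR-188-5p differed by -0.034 ± 0.74, and miR-219-1-3p, at the Ct limit in 3 of 6 samples, by -1.79 ± 1.59 (SE). Beside these values miR-132 stood near 0 and miR-184 had the widest standard error but that of miR-219-1-3p.

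**Figure D4:**
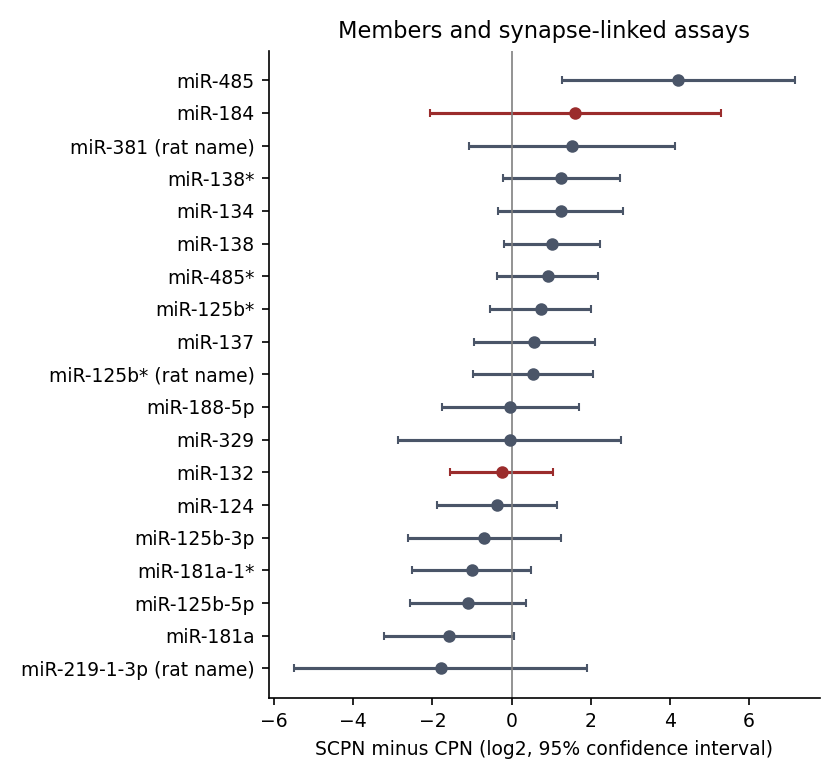
Difference in level, SCPN minus CPN in log2 units, with its 95% confidence interval from the limma fit, for miR-132 and miR-184 (red) and the 17 tested assays of synapse-linked microRNAs (grey), sorted by size. The intervals of both members include 0, and the 1 interval that does not is that of miR-485.

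The assays whose pattern over the 6 samples was most like each member were found on card A by the root mean square gap between levels centred on their own means. Such levels share the scale of their sample. For miR-132 the nearest were miR-335-3p, with a gap of 0.198 log2 units, miR-340-3p, at 0.25, and miR-19a, at 0.267, against a median of 0.837 over 158 assays. Their differences between groups were -0.27 ± 0.61, -0.47 ± 0.57 and -0.052 ± 0.58 (SE). For miR-184 no assay was close. The nearest were miR-433, at 1.53, miR-667 and miR-370, each at 1.54, against a median of 2.34. All 3 had their lowest level of the 6 samples in CPN replicate 1, as miR-184 did, and in CPN alone their highest in CPN replicate 2. As they were picked for likeness, such shared extremes follow in part from the choice. In SCPN replicate 1 miR-184, at -5.28, was below only CPN replicate 2. There miR-433 and miR-667, at 0.54 and -0.78, were above only CPN replicate 1, and miR-370, at 2.42, was above CPN replicates 1 and 3.

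**Figure D5:**
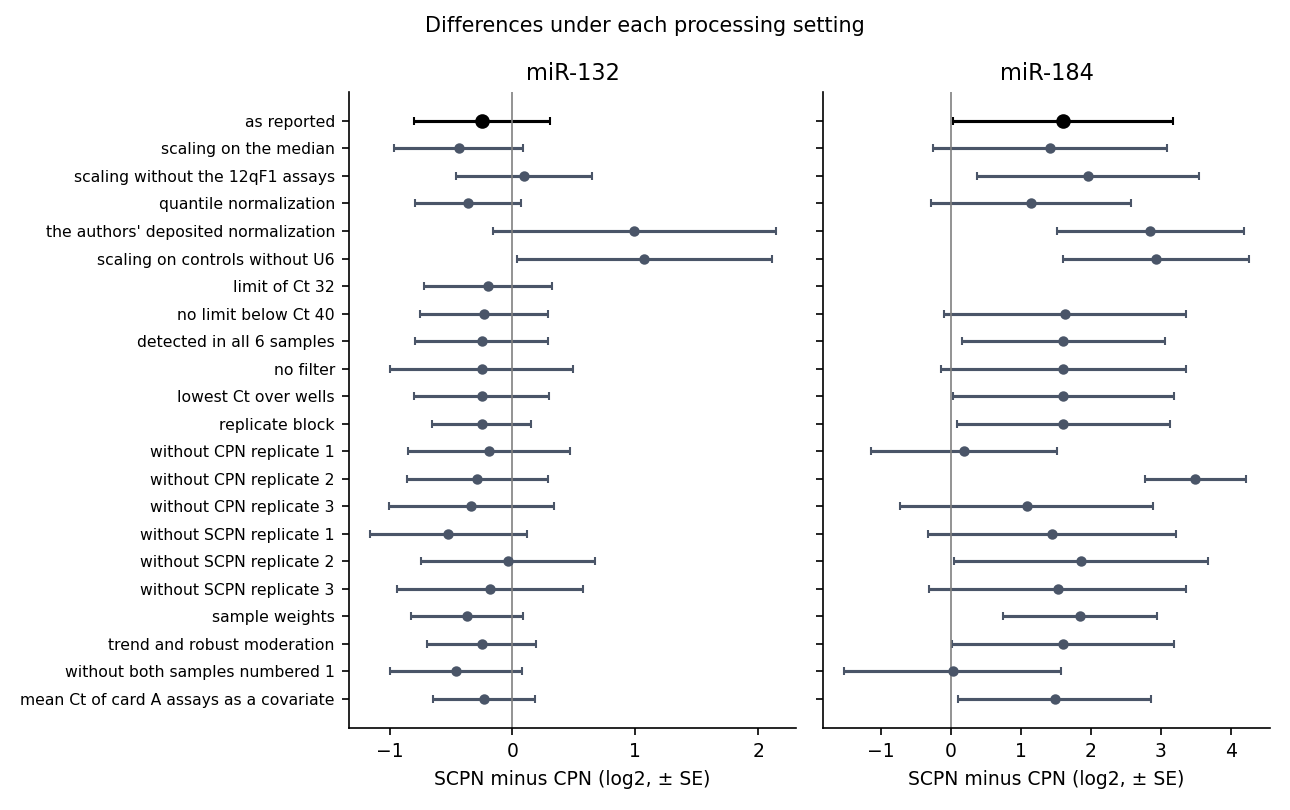
Difference in level, SCPN minus CPN in log2 units, of miR-132 and miR-184 under each processing setting, with bars of 1 SE from limma and the value as reported at the top. miR-132 stays between -0.52 and 1.07 and miR-184 between 0.022 and 3.50, with no value for miR-184 at a limit of Ct 32, where too few samples detected it for a test.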

How the data were processed

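Both members were measured in 6 samples, 3 CPN and 3 SCPN, grouped by their titles. The raw sheet, as deposited, holds Ct per well for 768 wells on 2 cards whose content follows miRBase release 10, per the labels' design text. The sources used here give neither the Ct threshold nor the software. The normalised sheet the authors deposited equals Ct minus 1 constant per sample and card. The relative quantity the authors deposited is a linear ratio, SCPN over CPN.

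From the raw Ct, wells of an assay were averaged, values of 35 or more and missing ones were set to 35, and the mean of the assays under 35 in all 6 samples was subtracted per sample and card. The 306 assays under 35 in at least 3 samples were fitted with limma 3.58.1 in R 4.3.3 (lmFit and eBayes, two-sided, Benjamini-Hochberg, threshold 0.05). The code was tried on simulated data with the same spread for every assay, set below the median spread within groups here. That trial therefore does not show how the fit performs at the spread of these samples. Ct data have no read depth, and precision rests on 3 samples a group and, for late assays, on the Ct limit. Replicate numbers were checked as pairs. The deviations from the group means of same-numbered samples, over 224 assays, correlated at 0.705, 0.329 and 0.278 for numbers 1, 2 and 3. The replicate block was a planned paired alternative and did not depend on these correlations. CPN replicate 2 with SCPN replicate 3 correlated at 0.413, and CPN replicate 3 with SCPN replicate 2 at 0.264. The other differently numbered combinations were negative. Numbers 2 and 3 are thus not told apart as pairs by these values. Deviations cancel out within a group, so a high value for number 1 by itself pushes its other combinations down and those among numbers 2 and 3 up. The samples numbered 1 also had the lowest card A mean Ct of their groups, 22.6 in CPN and 21.8 in SCPN. The part of template amount in these correlations was not tested. The members and lists were chosen with earlier results of these data known. Named are the members, the tested assays of the synapse list, the 3 nearest assays per member and the markers. Alternatives changed scaling, Ct limit, filter, wells, block, weights, moderation and the samples used.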

Additional observations from a re-analysis of the deposited data

How the results depend on the processing

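miR-184 kept a higher mean in SCPN in all 20 alternatives that gave a value (0.022 to 3.50) and passed adjusted p 0.05 in 0 of them (limma adjusted p 0.32 to 0.99). miR-132 was lower in SCPN in 18 of 21 alternatives and passed in 0 (adjusted p 0.71 to 0.997), and its difference turned to 0.094 with the 12qF1 assays left out of the scale, 0.99 with the authors' deposited normalisation and 1.07 with the controls other than U6. Leaving out 1 sample gave -0.52 to -0.036 for miR-132, 0.18 to 3.50 for miR-184 and 0.373 to 3.78 for miR-184 minus miR-132. With the replicate block the differences of -0.25 and 1.61 had limma adjusted p of 0.76 and 0.60, and no call changed. That of miR-184 minus miR-132, 1.86, had an exact permutation p of 0.5, which so few pairs cannot bring under 0.05. The block cannot move a difference in this balanced layout. Nor can the filters, the lowest Ct over wells or the moderation for these members, so in those alternatives the signs were fixed in advance. The count of assays called was 0 in 20 of 21 alternatives and 1 with sample weights, miR-666-5p. The miR-212 result was not run, and miR-184 was not tested at a limit of Ct 32. Each member rests on 1 well per sample, and miR-184 on cycles past 31 in 5 of 6.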
